A study of Homo sapiens with 11 samples.

Results

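The genes described here write and erase DNA methylation: the maintenance methyltransferase DNMT1 and its cofactor UHRF1, the de novo methyltransferases DNMT3A and DNMT3B with their catalytically inactive partner DNMT3L, and the dioxygenases TET1, TET2 and TET3. They were chosen by name, 8 of the 23287 genes in each deposited table. Each had a value, which could be 0, in all 11 libraries, made from the human embryonic stem cell lines H1 and H7. In 9 libraries the cells had been infected with a lentivirus 5 days earlier. It carried an shRNA against pCCNE1 (a variant of CCNE1, the cyclin E1 gene), the shRNA uCCNE1 or a control shRNA. Each shRNA was used in H7 cells in the naive medium 5iLA, in H1 cells in the naive medium t2iGo and in primed H1 cells. The other 2 libraries were untreated H7 cells, in 5iLA and primed. Each group was 1 library, so tests used the other shRNAs or cultures as replicates, and a difference between 5iLA and the other shRNA cultures is also a difference between cell lines. The line is the same for t2iGo and primed H1 and for the untreated pair. Both media are set against the same 3 primed H1 libraries, so those comparisons share them. The RNA is bulk RNA, in which fewer cells of a type and less RNA per cell cannot be told apart.

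Cytosines in CpG pairs are methylated on both strands, and replication leaves the new strand bare. UHRF1 recognises such hemimethylated sites and recruits DNMT1, which restores the mark, while DNMT3A and DNMT3B methylate bare DNA and DNMT3L stimulates them. The TET enzymes oxidise methylcytosine, which leads to its loss by dilution or by base excision repair. Human naive cells are known for low global methylation and for expression of DNMT3L, and DNMT3B is known as an abundant gene of primed cells. Cyclin E with its kinase CDK2 phosphorylates RB and so frees E2F factors, which act on genes of DNA replication.

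Promoter windows of 300 bases, 250 before and 50 after a transcript start, were read from RefSeq (build GRCh38.p14) for 7 of the 8 genes, DNMT3L being the exception. Those of DNMT1 and UHRF1, the maintenance pair, are shown because they hold an E2F-type word, and that of DNMT3B because its level differed most among the catalytic methyltransferases. They lie at chr19:10194904-10195203 on the minus strand for DNMT1, at chr19:4909251-4909550 on the plus strand for the first of 3 UHRF1 windows and at chr20:32779602-32779901 on the plus strand for DNMT3B. Capitals mark a match to TTTCCCGC, TTTCGCGC, TTTGCCGC or TTTGGCGC on either strand.
DNMT1: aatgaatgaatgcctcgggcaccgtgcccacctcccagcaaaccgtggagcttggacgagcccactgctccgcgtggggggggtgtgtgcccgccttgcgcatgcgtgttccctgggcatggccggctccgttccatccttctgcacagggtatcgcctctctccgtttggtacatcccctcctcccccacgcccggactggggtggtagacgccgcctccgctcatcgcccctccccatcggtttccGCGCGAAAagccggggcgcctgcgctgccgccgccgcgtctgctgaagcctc
UHRF1: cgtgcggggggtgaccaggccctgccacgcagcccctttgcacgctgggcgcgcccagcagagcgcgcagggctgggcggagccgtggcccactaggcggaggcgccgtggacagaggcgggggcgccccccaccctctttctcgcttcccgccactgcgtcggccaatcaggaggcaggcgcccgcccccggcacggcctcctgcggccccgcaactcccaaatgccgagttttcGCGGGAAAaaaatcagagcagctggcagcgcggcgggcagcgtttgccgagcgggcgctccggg
DNMT3B: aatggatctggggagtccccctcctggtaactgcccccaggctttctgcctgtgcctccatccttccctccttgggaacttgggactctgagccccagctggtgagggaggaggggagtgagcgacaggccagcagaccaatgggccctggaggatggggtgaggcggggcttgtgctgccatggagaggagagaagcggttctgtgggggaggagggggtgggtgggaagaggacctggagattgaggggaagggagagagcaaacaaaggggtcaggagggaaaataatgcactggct
The match lies at bases 249 to 256 of the DNMT1 window and at bases 237 to 244 of the UHRF1 window, counted from 1 at the 5′ end, close to the start of transcription. A second UHRF1 window also held a match, and the windows of DNMT3A, DNMT3B, TET1, TET2 and TET3 held none of these letters. Among 35116 such windows, 3.31% held a match. The DNMT1 window had 30 CpG pairs and the UHRF1 window 36, against 3 in the DNMT3B window and a median of 14 over all windows. A match describes the letters only. For DNMT3B only 1 window was read, so its CpG count and its lack of a match do not describe other starts of the gene. Which start the cells used was not tested.

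The values are RPKM, reads scaled by transcript length and library size, and the depth estimated from them was 11.2 to 16.8 M reads in 5iLA, 6.24 to 14.0 in t2iGo, 18.9 to 23.5 in primed H1, and 24.9 and 13.1 in untreated 5iLA and primed H7. The targeted gene CCNE1 lay at 59.3%, 54.4% and 88.2% of control with pCCNE1 shRNA in 5iLA, t2iGo and primed cells, and at 37.3%, 55.8% and 56.4% with uCCNE1. A gene's RPKM pools its splice forms, and the variant on its own was not measured. Naive markers summed to 1003 to 1875 RPKM in 5iLA, against 51.4 to 88.3 in primed H1, where ZFP42 held most of it. In t2iGo, labelled naive, they summed to only 11.5 to 14.3 RPKM with at most 3 of 13 markers at 1 RPKM, while 11 of 12 primed markers stood at 1 RPKM or more and endoderm markers summed to 70.9 to 177 RPKM, against 2.68 to 7.43 in primed H1. The markers of t2iGo therefore went against its label, and it is called by its medium here. The 11 fibroblast markers, a sign of feeder or differentiated cells, summed to 4.27 to 19.5 RPKM in 5iLA, 98.8 to 264 in t2iGo and 194 to 267 in primed H1, and to 159 and 63.0 in untreated 5iLA and primed H7. In primed H1 much of the sum was THY1, which is also on the primed list, at 94.5 to 195 RPKM, against 6.73 to 8.91 in t2iGo. The collagen gene COL3A1 stood at 47.3 to 137 RPKM in t2iGo, against 0.180 to 1.079 in primed H1, and LUM at 13.9 to 71.5 RPKM, against 0.249 to 0.463. Other fibroblast markers ran the other way. COL1A2 stood at 1.41 to 2.31 RPKM in t2iGo, against 23.2 to 29.6 in primed H1. TAGLN stood at 15.1 to 23.0 RPKM, against 28.5 to 102.8. The part of such cells in the levels below was not tested. Untreated 5iLA H7 held 369 RPKM of naive and 247 of primed markers, against 5.27 and 840 in untreated primed H7.

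Primed H1 libraries also stood apart in scale, and the labels name them by another scheme than the rest. Their summed RPKM was 341088 to 357685, against 139202 to 224314 in the other shRNA libraries, and 71.8% to 84.6% of all 12116 genes tested differed from primed H1 in a naive medium. Differences are therefore given on the deposited values and again after median-ratio scaling, which sets each library to the same typical gene. GC content moved with the same contrast. Across the GC decile that holds DNMT1, UHRF1, DNMT3A, DNMT3B and DNMT3L (transcripts of 55.4% to 57.9% GC), the median log2 difference was -1.58 in 5iLA and -1.46 in t2iGo relative to primed H1. For the decile of TET1 and TET2 (41.0% and 39.5% GC) these medians were -0.77 and -0.16. The part of GC content in the differences below was not tested, and values centred on GC deciles stand beside them where they change a call. Whether the libraries of the cultures overlap is stated for each member as a description. The share of all genes without such overlap was not counted.

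**Figure D1:**
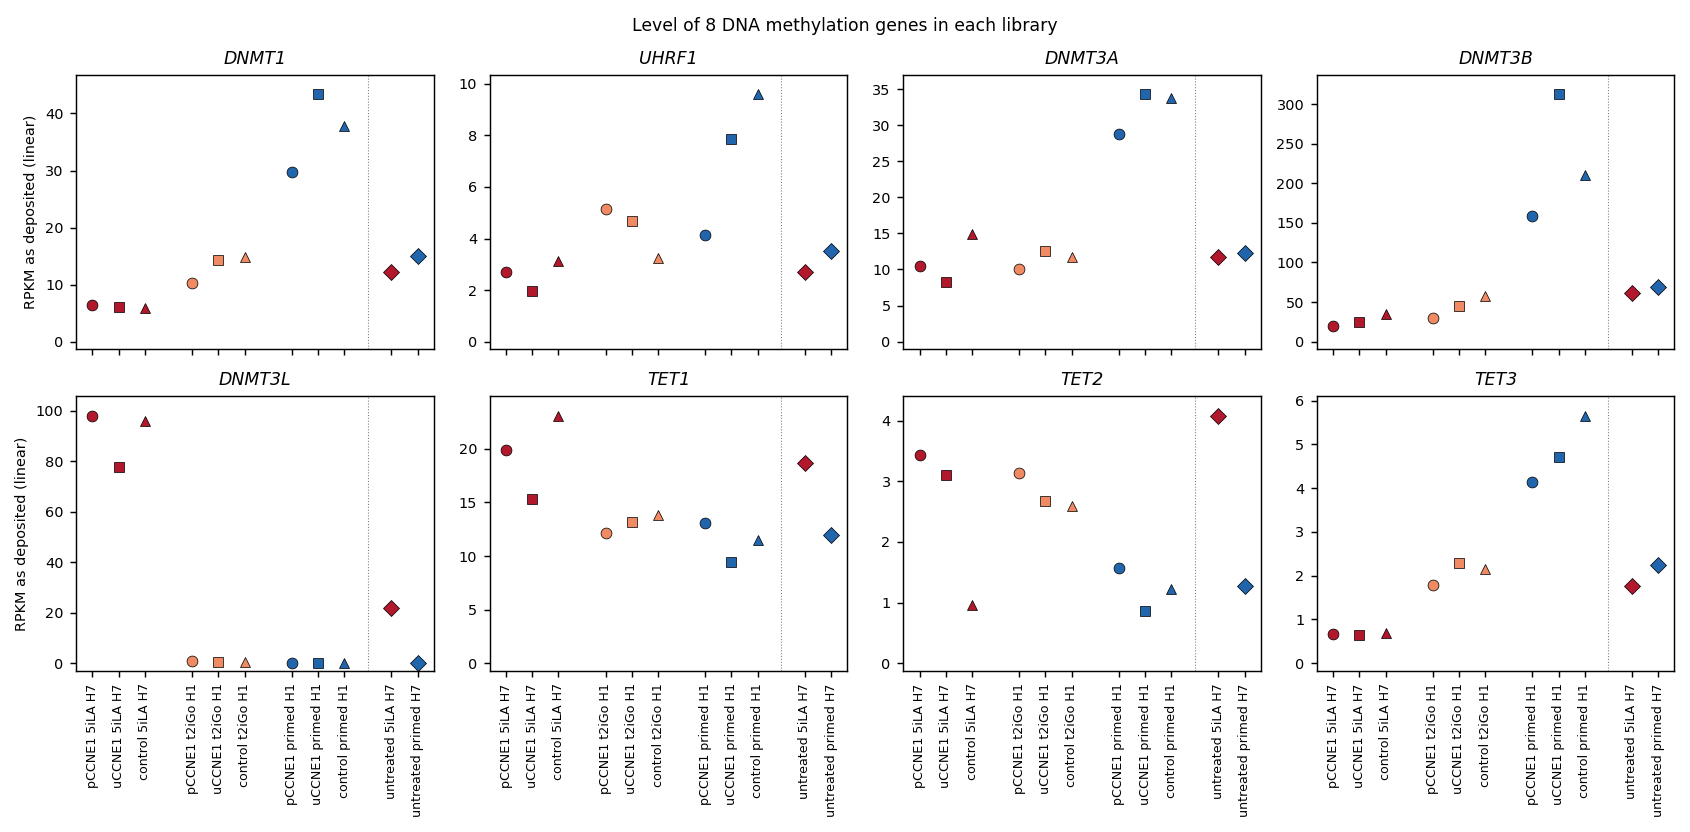
RPKM as deposited (linear axes) of the 8 genes in each of the 11 libraries, with 5iLA in red, t2iGo in orange and primed in blue. Symbols mark the pCCNE1 shRNA (circles), uCCNE1 (squares), control (triangles) and untreated cells (diamonds, right of the dotted line, from a table normalised separately). DNMT3L is high in 5iLA, at 77.8 to 98.0 RPKM with an shRNA and 21.8 RPKM untreated, while DNMT3B is highest in primed H1, at 158.3 to 312.4 RPKM.

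DNMT3L gave the widest contrast of the 8 genes. It stood at 98.0, 77.8 and 96.0 RPKM with pCCNE1, uCCNE1 and control shRNA in 5iLA, at 0.701, 0.455 and 0.649 RPKM in t2iGo, and at 0, 0 and 0.143 RPKM in primed H1. The 3 cultures did not overlap. By the estimated depth these are 5131 reads in 5iLA, 24 in t2iGo and 4 in primed H1, a ratio of 1948 (exact 95% interval 760 to 7152, counting error only) for 5iLA over primed H1 and of 155 (104 to 243) for 5iLA over t2iGo. The ratio of t2iGo over primed H1 was 12.5 (4.31 to 49.7), at levels near the 0.0937 to 0.116 RPKM that 3 reads stand for in a primed library. The gene passed the filter of a mean of 1 RPKM through 5iLA alone, so its differences on the scale of log2(RPKM + 1), 6.45 for 5iLA minus primed H1 and 5.83 for 5iLA minus t2iGo, are given as a description without a p. For t2iGo minus primed H1, where every library lay below 1 RPKM, the log2 difference was 0.61 ± 0.16 (limma SE, as below). It is likewise given without a p. In untreated H7 the order was the same, with 21.8 RPKM in 5iLA and 0.206 RPKM when primed, about 741 and 4 reads, a ratio of 97.6 (38.0 to 359) at equal depth.

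DNMT3B, the de novo enzyme of the early embryo, was the most abundant member in primed cells. Its level was 20.2, 25.3 and 35.1 RPKM in 5iLA, 29.4, 45.5 and 57.6 RPKM in t2iGo, and 158.3, 312.4 and 210.1 RPKM in primed H1, with pCCNE1, uCCNE1 and control shRNA in that order. The 2 naive media overlapped each other and both lay below every primed H1 library. DNMT3B fell in 5iLA by 3.01 ± 0.23 and in t2iGo by 2.33 ± 0.23 on the log2 scale relative to primed H1 (limma, adjusted p = 3.17e-07 and 3.25e-06). It passed with median-ratio scaling, at -1.77 ± 0.18 and -1.53 ± 0.18 (limma, adjusted p = 4.18e-05 and 0.000125), and with centring on GC deciles, at -1.49 ± 0.19 and -0.92 ± 0.19 (limma, adjusted p = 0.000168 and 0.0037). For 5iLA minus t2iGo it was -0.68 ± 0.23 as deposited (limma, adjusted p = 0.0251) and -0.24 ± 0.18 when scaled (limma, adjusted p = 0.273), and on deposited values it missed the threshold at -0.61 without uCCNE1 libraries and at -0.76 without pCCNE1 libraries (limma, adjusted p = 0.118 and 0.0798). The untreated H7 pair, at 61.4 RPKM in 5iLA and 69.5 RPKM when primed, differed by -0.18 on the log2 scale, within the 2-fold used for single libraries.

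DNMT3A, the other de novo enzyme, was at 10.4, 8.27 and 14.9 RPKM in 5iLA, 10.1, 12.6 and 11.7 RPKM in t2iGo and 28.8, 34.3 and 33.8 RPKM in primed H1 (pCCNE1, uCCNE1, control). The primed libraries lay above all others, and the 2 media overlapped. The log2 difference from primed H1 was -1.48 ± 0.21 in 5iLA and -1.42 ± 0.21 in t2iGo (limma, adjusted p = 3.56e-05 and 7.25e-05), close to the medians of -1.58 and -1.46 for genes of like GC content. With median-ratio scaling it was -0.28 ± 0.14 in 5iLA (limma, adjusted p = 0.102) and -0.64 ± 0.14 in t2iGo (limma, adjusted p = 0.00353), and with GC centring it was 0.04 and -0.01 (limma, adjusted p = 0.836 and 0.963). For 5iLA minus t2iGo it was -0.07 ± 0.21 as deposited (limma, adjusted p = 0.809) and 0.36 ± 0.14 when scaled (limma, adjusted p = 0.057), where the sign turned and the libraries of the 2 media did not overlap. Untreated H7 held 11.7 RPKM in 5iLA and 12.3 RPKM when primed.

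The ratio of DNMT3B to DNMT3A inside a library does not depend on scaling, and both transcripts lie in the same GC decile. DNMT3B stood at 1.94, 3.06 and 2.36 times DNMT3A in 5iLA, at 2.90, 3.61 and 4.92 times in t2iGo and at 5.49, 9.11 and 6.21 times in primed H1 (pCCNE1, uCCNE1, control). The ratio was lower in every library of a naive medium than in any primed H1 library. It was 5.24 in untreated 5iLA H7 and 5.64 in untreated primed H7. DNMT3L made up 65.8% to 76.2% of the summed RPKM of the 3 DNMT3 genes in 5iLA, 0.776% to 1.74% in t2iGo and at most 0.0585% in primed H1, and 23.0% and 0.251% in untreated 5iLA and primed H7.

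**Figure D2:**
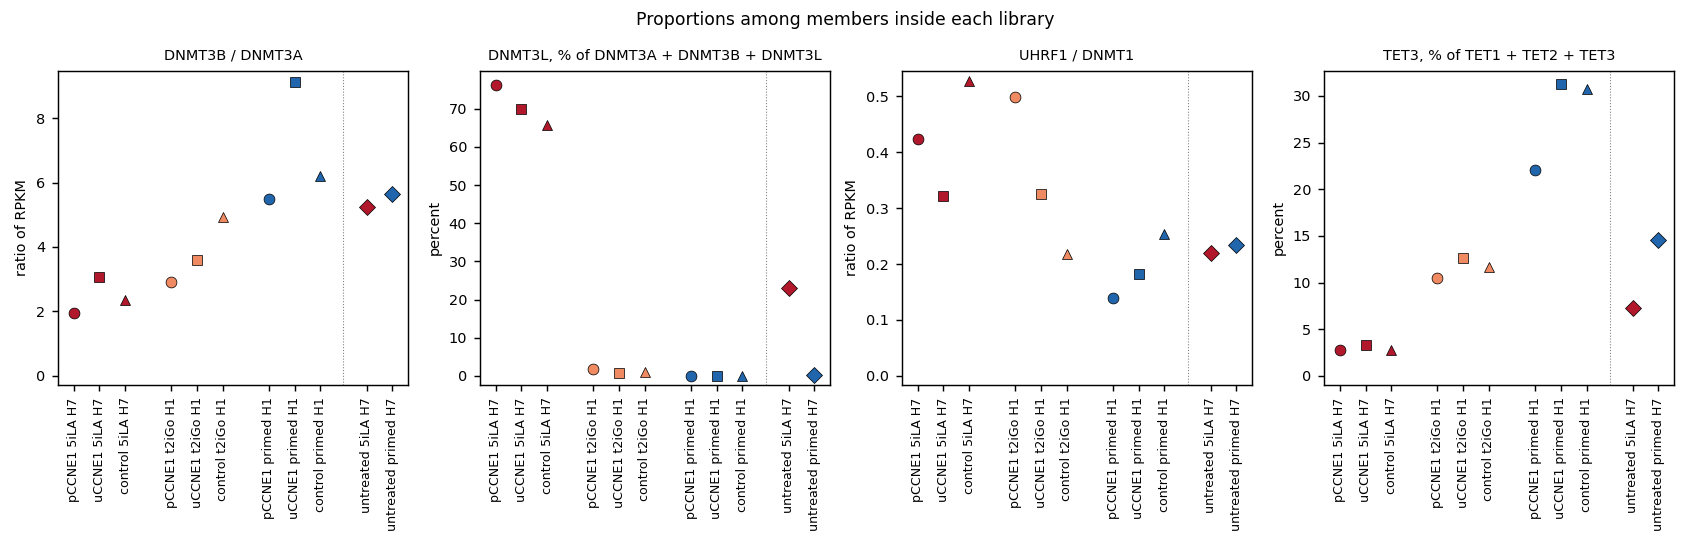
Ratios of RPKM and shares in percent among the members inside each library, with colours by culture (red 5iLA, orange t2iGo, blue primed) and untreated H7 right of the dotted line. DNMT3B over DNMT3A spans 1.94 to 3.06 in 5iLA and 5.49 to 9.11 in primed H1, and TET3 holds 2.76% to 3.36% of TET RPKM in 5iLA against 22.1% to 31.3% in primed H1.

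DNMT1, the maintenance enzyme, was at 6.36, 6.14 and 5.92 RPKM in 5iLA, 10.3, 14.3 and 14.9 RPKM in t2iGo and 29.7, 43.4 and 37.9 RPKM in primed H1 (pCCNE1, uCCNE1, control). The 3 cultures did not overlap, with 5iLA lowest and primed H1 highest. It fell by 2.39 ± 0.19 in 5iLA relative to primed H1 and by 0.97 ± 0.19 relative to t2iGo (limma, adjusted p = 4.48e-07 and 0.00125). Both stayed past the threshold with median-ratio scaling, at -1.22 ± 0.19 and -0.57 ± 0.19 (limma, adjusted p = 0.000489 and 0.0283), and with GC centring, at -0.87 and -0.86 (limma, adjusted p = 0.000842 and 0.0014). The difference of -1.42 ± 0.19 for t2iGo minus primed H1 (limma, adjusted p = 3.58e-05) was -0.64 ± 0.19 when scaled (limma, adjusted p = 0.0141) and -0.01 with GC centring (limma, adjusted p = 0.94). Untreated H7 held 12.2 RPKM in 5iLA and 15.0 RPKM when primed.

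Set against the median RPKM of 18 S-phase genes in the same library, DNMT1 stood at 0.482, 0.531 and 0.362 in 5iLA, 0.574, 0.568 and 0.661 in t2iGo and 0.761, 0.872 and 0.840 in primed H1 (pCCNE1, uCCNE1, control). The 3 cultures again did not overlap, though the S-phase genes were not matched to DNMT1 in GC content. Untreated H7 showed the same direction for DNMT1, at 0.570 in 5iLA and 0.992 when primed. The same ratio for UHRF1 overlapped among the cultures. It was 0.171 to 0.204 in 5iLA, 0.144 to 0.286 in t2iGo and 0.106 to 0.213 in primed H1. In untreated H7 it was 0.125 in 5iLA and 0.232 when primed. The S-phase genes themselves were at a median of 11.6 to 16.3 RPKM in 5iLA, 17.9 to 25.2 in t2iGo and 38.9 to 49.7 in primed H1.

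UHRF1, which brings DNMT1 to hemimethylated DNA, was at 2.69, 1.98 and 3.12 RPKM in 5iLA, 5.13, 4.66 and 3.25 RPKM in t2iGo and 4.13, 7.87 and 9.59 RPKM in primed H1 (pCCNE1, uCCNE1, control). The t2iGo and primed libraries overlapped, and 5iLA lay below both. The log2 difference from primed H1 was -1.14 ± 0.26 in 5iLA (limma, adjusted p = 0.00166) and -0.57 ± 0.26 in t2iGo (limma, adjusted p = 0.0721). With median-ratio scaling these were -0.13 ± 0.28 and 0.10 ± 0.28 (limma, adjusted p = 0.698 and 0.759), and the sign in t2iGo turned. GC centring gave 0.38 in 5iLA and 0.84 in t2iGo (limma, adjusted p = 0.237 and 0.0273). For 5iLA minus t2iGo it was -0.57 ± 0.26 (limma, adjusted p = 0.0883) and -0.23 ± 0.28 when scaled (limma, adjusted p = 0.5). Inside each library UHRF1 stood at 0.322 to 0.527 of DNMT1 in 5iLA, 0.218 to 0.498 in t2iGo and 0.139 to 0.253 in primed H1, and at 0.219 and 0.234 in untreated 5iLA and primed H7.

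TET1, the main TET gene of pluripotent cells, had the highest RPKM of the TET genes in all 11 libraries. It was at 19.9, 15.4 and 23.1 RPKM in 5iLA, 12.2, 13.1 and 13.8 RPKM in t2iGo and 13.1, 9.48 and 11.5 RPKM in primed H1 (pCCNE1, uCCNE1, control). All 5iLA libraries lay above all others, while t2iGo and primed H1 overlapped. TET1 rose in 5iLA by 0.72 ± 0.19 relative to primed H1 and by 0.53 ± 0.19 relative to t2iGo (limma, adjusted p = 0.00369 and 0.0331), and by 1.89 ± 0.13 and 0.97 ± 0.13 with median-ratio scaling (limma, adjusted p = 4.94e-06 and 0.0003). On deposited values the call against t2iGo was lost without the libraries of any 1 shRNA, at 0.44 to 0.69 (limma, adjusted p = 0.0656 to 0.181). For t2iGo minus primed H1 the difference was 0.19 ± 0.19 (limma, adjusted p = 0.379) as deposited, 0.92 ± 0.13 when scaled (limma, adjusted p = 0.000299) and 0.29 with GC centring (limma, adjusted p = 0.11). Untreated H7 held 18.7 RPKM in 5iLA and 11.98 RPKM when primed, a log2 difference of 0.60.

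TET2, the TET enzyme without a DNA-binding CXXC domain, was low everywhere and uneven in 5iLA. It was at 3.44, 3.10 and 0.961 RPKM in 5iLA, 3.14, 2.67 and 2.60 RPKM in t2iGo and 1.56, 0.857 and 1.22 RPKM in primed H1 (pCCNE1, uCCNE1, control). The control library in 5iLA lay among the primed libraries, and all other libraries of a naive medium lay above them. The difference for t2iGo minus primed H1 was 0.79 ± 0.24 (limma, adjusted p = 0.0107), and it lost its call at 0.69 without uCCNE1 libraries (limma, adjusted p = 0.0644). For 5iLA minus primed H1 it was 0.58 ± 0.24 (limma, adjusted p = 0.0375), and 0.31 and 0.48 without uCCNE1 or pCCNE1 libraries (limma, adjusted p = 0.353 and 0.111). With median-ratio scaling these were 1.21 ± 0.32 and 1.36 ± 0.32 (limma, adjusted p = 0.00892 and 0.005). For 5iLA minus t2iGo it was -0.21 ± 0.24 as deposited (limma, adjusted p = 0.489) and turned to 0.14 ± 0.32 when scaled (limma, adjusted p = 0.721). Untreated H7 held 4.08 RPKM in 5iLA and 1.27 RPKM when primed, 3.21-fold higher in 5iLA.

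TET3, known in mouse as the TET enzyme of the zygote, was lowest in 5iLA, at 0.670, 0.642 and 0.682 RPKM, against 1.79, 2.29 and 2.16 RPKM in t2iGo and 4.15, 4.70 and 5.65 RPKM in primed H1 (pCCNE1, uCCNE1, control). The 3 cultures did not overlap. TET3 fell in 5iLA by 1.80 ± 0.16 relative to primed H1 and by 0.88 ± 0.16 relative to t2iGo (limma, adjusted p = 1.18e-06 and 0.00085), and with median-ratio scaling by 1.0 ± 0.16 and 0.70 ± 0.16 (limma, adjusted p = 0.000697 and 0.00604). For t2iGo minus primed H1 it was -0.92 ± 0.16 (limma, adjusted p = 0.00033), -0.29 ± 0.16 when scaled (limma, adjusted p = 0.141) and 0.18 with GC centring (limma, adjusted p = 0.34). Its share of TET RPKM was 2.76% to 3.36% in 5iLA, 10.5% to 12.6% in t2iGo and 22.1% to 31.3% in primed H1, and 7.23% and 14.5% in untreated 5iLA and primed H7. The untreated levels were 1.78 RPKM in 5iLA and 2.25 RPKM when primed.

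**Figure D3:**
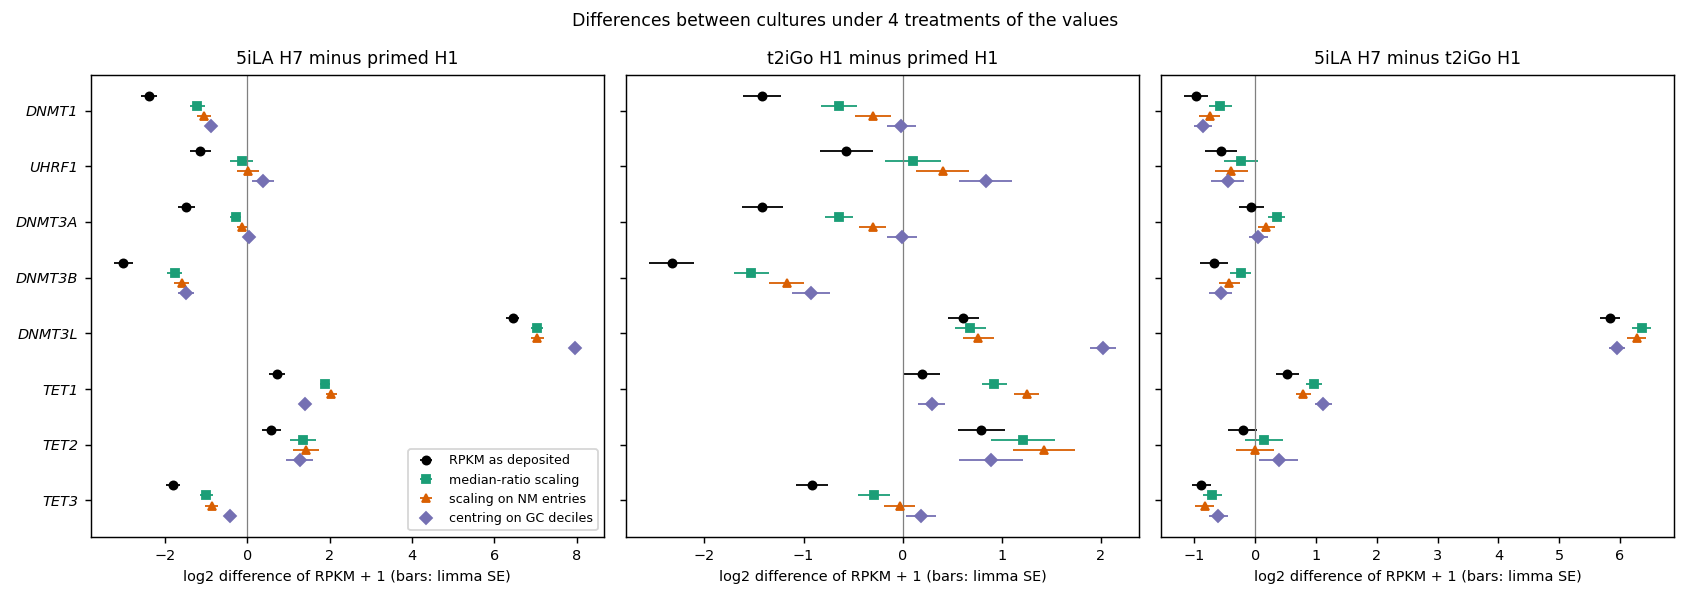
Log2 differences of RPKM + 1 between cultures for each member (points) with limma standard errors (bars), for deposited values, 2 scalings and centring on GC deciles. For 5iLA minus primed H1 DNMT3B lies at -3.01 to -1.49 and DNMT3L at 6.45 to 7.97, while UHRF1 crosses 0, at -1.14 to 0.38.

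Counted together, 8 of 8 members passed for 5iLA minus primed H1 (3 higher, 5 lower), on a background of 84.6% of all genes (7.74% higher, 76.8% lower), and 6 with median-ratio scaling (3 higher, 3 lower), on 66.4% (26.7% higher, 39.7% lower). DNMT3L is among the higher ones in both comparisons of 5iLA, where the filter set its call. It is also among them for t2iGo minus primed H1, where it was tested only because of its level in 5iLA. For t2iGo minus primed H1 6 of 8 passed (2 higher, 4 lower) on a background of 71.8% (8.77% higher, 63.0% lower). With median-ratio scaling 3 were higher and 3 lower, on 65.9% (27.3% higher, 38.6% lower). For 5iLA minus t2iGo 5 of 8 passed (2 higher, 3 lower) on a background of 55.0% (14.9% higher, 40.1% lower). When scaled 2 were higher and 2 lower, on 55.6% (28.2% higher, 27.4% lower). Counted in either direction, the members' shares lie near the background and are no result about them, and their median log2 difference of -1.31 for 5iLA and -0.74 for t2iGo minus primed H1 was close to the -1.23 and -0.82 of all genes tested. In the untreated H7 pair 15.0% of 11015 genes differed 2-fold (11% higher, 3.94% lower), and DNMT3L and TET2 were the 2 of 8 members that did, both higher in 5iLA.

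The shRNAs against CCNE1 changed no member past the threshold. In limma 0 of 12116 genes (0.0%) passed with pCCNE1, with 1792 at an unadjusted p under 0.05, and 0 (0.0%) with uCCNE1, with 1236 at that level. Both comparisons use the same control libraries. DNMT3B had the lowest p among the members for pCCNE1. Its level was 57.7%, 51.1% and 75.3% of control with pCCNE1 in 5iLA, t2iGo and primed cells, and 72.2%, 79.0% and 148.7% with uCCNE1. With pCCNE1 it was at 78.9%, 55.0% and 71.7% when scaled. Marker genes differed between the same libraries. Fibroblast markers in t2iGo summed to 264 RPKM with pCCNE1 and 167 with uCCNE1, against 98.8 with control, and endoderm markers to 164 and 177, against 70.9. Naive markers in 5iLA summed to 1017 RPKM with pCCNE1 and 1003 with uCCNE1, against 1875 with control. These sums are on deposited values, where the median gene in 5iLA also lay 0.30 and 0.34 below control on the log2 scale. The part of the marker differences in the DNMT3B values was not tested. The log2 difference was -0.71 ± 0.23 for pCCNE1 (limma, adjusted p = 0.214) and -0.07 ± 0.23 for uCCNE1 (limma, adjusted p = 0.922). Set directly against each other, pCCNE1 minus uCCNE1 was -0.63 ± 0.23 for DNMT3B (limma, adjusted p = 0.99), in a comparison where 0.0% of genes were called and 495 lay under an unadjusted p of 0.05.

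Below control with pCCNE1 in all 3 cultures were DNMT3A, DNMT3B and TET3, as were 27.5% of all genes, and above control in all 3 was TET2, as were 6.15%. With uCCNE1, DNMT3L and TET1 lay below control in all 3 cultures, as did 26.9% of genes. For DNMT3L few reads set this outside 5iLA. It was at 0 against 0.143 RPKM in primed H1, about 0 and 4 reads, and at 0.455 against 0.649 RPKM in t2iGo, about 6 and 12 reads. After median-ratio scaling TET3 stood at 134% of control with pCCNE1 in 5iLA and DNMT3L at 114% with uCCNE1, so these were below control in all 3 cultures on deposited values only. DNMT3A with pCCNE1 stood at 70.1%, 86.6% and 85.2% of control in 5iLA, t2iGo and primed cells, and TET3 at 98.3%, 82.7% and 73.4%. DNMT3L, whose product stimulates the de novo enzymes, was at 102% of control with pCCNE1 and 81.0% with uCCNE1 in 5iLA, where it is abundant. In 5iLA the median gene lay 0.30 below control on the log2 scale with pCCNE1 and 0.34 below with uCCNE1.

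**Figure D4:**
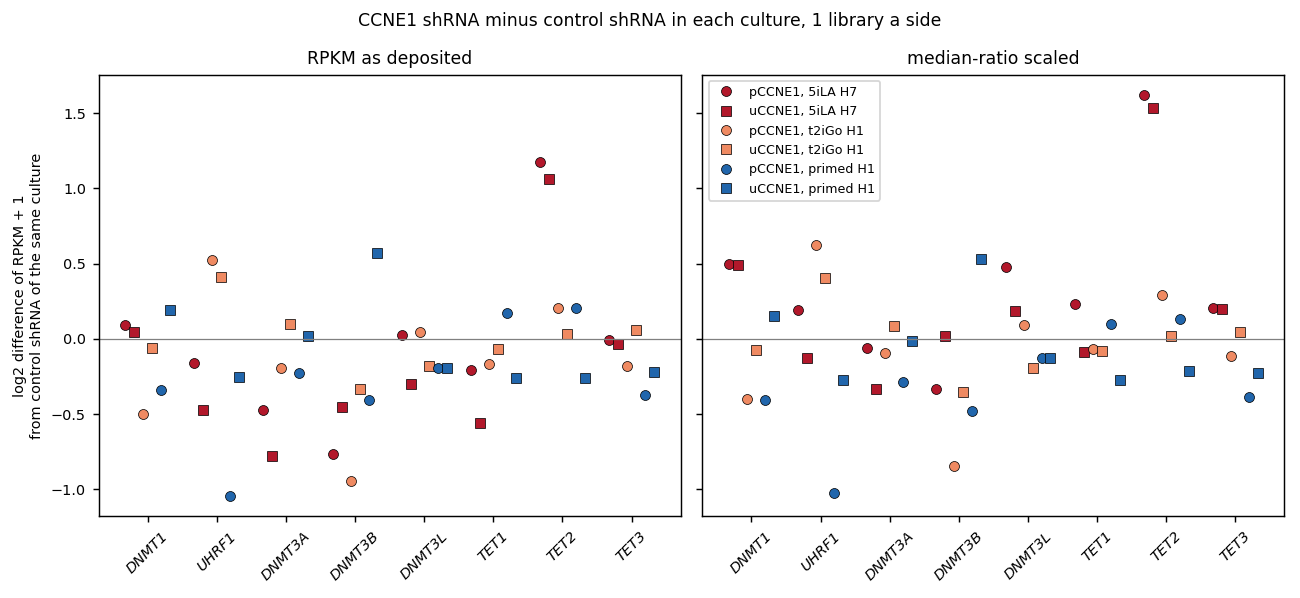
Log2 difference of RPKM + 1 between a CCNE1 shRNA library and the control library of the same culture, for deposited (left) and median-ratio scaled values (right), with circles for pCCNE1, squares for uCCNE1 and colours by culture. Each point compares 1 library with 1 library. TET2 in 5iLA lies at 1.18 and 1.06 as deposited, and DNMT3B lies below 0 with pCCNE1 in all 3 cultures on both scales.

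Against the control of its own culture, TET2 in 5iLA stood at 358% with pCCNE1 and 323% with uCCNE1, past 2-fold where 5.78% and 5.46% of genes were. Both ratios rest on the single control library at 0.961 RPKM, about 149 reads. In t2iGo TET2 was at 121% and 103% of control with pCCNE1 and uCCNE1 and in primed cells at 128% and 70.0%. To compare shRNA effects between cultures, both CCNE1 shRNA libraries of a culture were taken as replicates, against its single control library. The SE of such a difference measures only how the pCCNE1 and uCCNE1 libraries differ. The effect of a CCNE1 shRNA on TET2 in 5iLA minus that in primed H1 was 1.15 ± 0.37 (limma, adjusted p = 0.392), and minus that in t2iGo it was 1.0 ± 0.37 (limma, adjusted p = 0.626). In those tests of a difference between cultures 0.066% of genes passed for 5iLA minus primed H1, 0.0248% for 5iLA minus t2iGo and 0.0825% for t2iGo minus primed H1, and 0 of 8 members.

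UHRF1 was the other member past 2-fold, which is taken on RPKM + 1. It was at 43.0% of control with pCCNE1 in primed H1, where 4.53% of genes were past 2-fold. With uCCNE1 in primed H1 it was at 82.0%, where 3.44% of genes and 0 members were past 2-fold. In t2iGo it was at 158% and 143% of control with pCCNE1 and uCCNE1, where 3.46% and 1.02% of genes and 0 members were past 2-fold. In 5iLA it was at 86.3% and 63.3% as deposited and at 118% and 89.2% when scaled. The DNMT1 level was 107%, 69.0% and 78.3% of control with pCCNE1 in 5iLA, t2iGo and primed cells and 104%, 95.8% and 115% with uCCNE1, with 147% and 146% in 5iLA when scaled. With pCCNE1 both genes thus lay below control in primed H1, while in t2iGo UHRF1 lay above control and DNMT1 below it.

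Partners of the maintenance enzymes were described from a list of 9 genes. Of these, 1 was higher and 7 lower for 5iLA minus primed H1 (2 and 5 with median-ratio scaling), and 0 were higher and 7 lower for t2iGo minus primed H1 (2 and 3 when scaled). Beside these counts and those of the lists that follow, 76.8% of all genes were lower for 5iLA and 63.0% for t2iGo, and 39.7% and 38.6% when scaled. The shares of all genes called higher were 7.74% for 5iLA and 8.77% for t2iGo, and 26.7% and 27.3% when scaled. A list in which most genes are lower on deposited values is therefore no result about that list. The median log2 difference of the 9 genes was -1.54 for 5iLA and -1.0 for t2iGo, against -1.23 and -0.82 over all genes. DPPA3, which in mouse binds Uhrf1 and blocks maintenance, stood at 156, 172 and 260 RPKM in 5iLA, 0.358, 0.339 and 0.768 RPKM in t2iGo and 0.273, 0.371 and 0 RPKM in primed H1 (pCCNE1, uCCNE1, control). The t2iGo and primed libraries overlapped, and it reached a mean of 1 RPKM through 5iLA alone. It is counted among the higher genes for 5iLA minus primed H1, as deposited and when scaled, where the filter set its call. It was 52.7 RPKM in untreated 5iLA and 0.165 RPKM in untreated primed H7. LIG1, the ligase that joins Okazaki fragments, fell by 2.15 ± 0.19 in t2iGo relative to primed H1 (limma, adjusted p = 1.4e-06; -1.39 when scaled), and HDAC2, a histone deacetylase, fell by 2.33 ± 0.19 in 5iLA (limma, adjusted p = 5.89e-07; -1.13 when scaled).

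Among 13 partners of de novo methylation, 1 was higher and 7 lower for 5iLA minus primed H1 (7 and 6 when scaled) and 0 were higher and 9 lower for t2iGo minus primed H1 (3 and 6 when scaled). Their median was -0.42 for 5iLA and -0.59 for t2iGo. The gene counted as higher in 5iLA was ZFP57, which protects imprinted regions. It reached a mean of 1 RPKM through 5iLA alone, so its log2 difference of 2.89 is a description. It was at 8.52, 10.1 and 12.2 RPKM in 5iLA, 0, 0.171 and 0.0776 RPKM in t2iGo and 0.254, 0.915 and 0.429 RPKM in primed H1 (pCCNE1, uCCNE1, control). EHMT2, an H3K9 methyltransferase, fell by 3.46 ± 0.22 in 5iLA and by 2.64 ± 0.22 in t2iGo relative to primed H1 (limma, adjusted p = 8.67e-08 and 9.74e-07), and scaled values were -2.36 and -1.88. TRIM28, the corepressor of KRAB zinc finger proteins, fell by 2.60 ± 0.25 in t2iGo (limma, adjusted p = 2.7e-06; -1.80 when scaled). QSER1, which shields bivalent promoters from DNMT3 enzymes, fell by 1.73 ± 0.19 in 5iLA relative to t2iGo (limma, adjusted p = 2.07e-05; -1.37 when scaled).

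Downstream of the TET enzymes, 0 of 14 tested genes of base excision and TET cofactors were higher and 13 lower for 5iLA minus primed H1 (2 and 6 when scaled), and 0 and 10 for t2iGo minus primed H1 (1 and 4 when scaled), with medians of -1.41 and -0.93. XRCC1, the scaffold of base excision repair, fell relative to primed H1, with log2 differences of -2.82 ± 0.17 in 5iLA and -2.58 ± 0.17 in t2iGo (limma, adjusted p = 7.68e-08 and 3.26e-07), and -1.72 and -1.83 when scaled. IDH2, which makes the 2-oxoglutarate that TET enzymes use, fell by 3.63 ± 0.20 in 5iLA (limma, adjusted p = 3.79e-08; -2.51 when scaled). Readers of methylated CpG gave 0 higher and 8 lower of 8 for 5iLA (2 and 2 when scaled), and 1 higher, ZBTB38, and 5 lower for t2iGo (2 and 3 when scaled), with medians of -1.06 and -0.88. Methyl donor genes gave 1 higher and 9 lower of 11 for 5iLA (2 and 3 when scaled) and 1 and 9 for t2iGo (1 and 4 when scaled), with SHMT2 at -2.98 ± 0.20 and -3.13 ± 0.20 (limma, adjusted p = 1.39e-07 and 2.44e-07), or -1.75 and -2.34 when scaled. The gene counted as higher in 5iLA was BHMT, which reached a mean of 1 RPKM through 5iLA alone, so the filter set its call. It was at 2.66 to 5.19 RPKM in 5iLA, 0 to 0.113 in t2iGo and 0.202 to 0.726 in primed H1. The medians of the methyl donor list were -1.25 and -0.92. For none of these lists did a gene pass for pCCNE1 or uCCNE1 against control. As 0 of all 12116 genes passed there, this is no result about the lists.

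Germline genes with methylated CpG-rich promoters are silenced by DNA methylation in somatic cells. Of 17 listed, 8 reached a mean of 1 RPKM, and 6 of those (SYCP3, HORMAD1, BRDT, MAEL, TDRD1 and GTSF1) did so through 5iLA alone. BRDT, a testis bromodomain protein, was at 30.1, 24.9 and 45.2 RPKM in 5iLA and at most 0.257 RPKM in t2iGo and 0 RPKM in primed H1. HORMAD1, of meiotic chromosome axes, was at 28.2, 22.7 and 35.4 RPKM in 5iLA, at most 0.226 RPKM in t2iGo and 0 RPKM in primed H1. In untreated 5iLA H7 BRDT was at 10.8 RPKM and HORMAD1 at 6.63 RPKM, against 0 and 0.0409 RPKM in untreated primed H7. DAZL, an RNA-binding protein of germ cells, ran the other way, at 0 to 0.0285 RPKM in 5iLA, 1.57 to 1.98 RPKM in t2iGo and 4.21 to 7.13 RPKM in primed H1. DPEP3 was at 3.04 to 4.81 RPKM in primed H1, at most 0.0526 in 5iLA and 0 in t2iGo. It reached a mean of 1 RPKM through primed H1 alone, and stood at 0.239 RPKM in untreated primed H7. No germline gene was called higher in t2iGo than in primed H1 on deposited values. With GC centring 1 was, but centring sets each gene against the median of its GC decile. The decile medians given above were lower in t2iGo, so centring moves up a gene that is near 0 in both cultures. That call is therefore no result about germline genes.

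**Figure D5:**
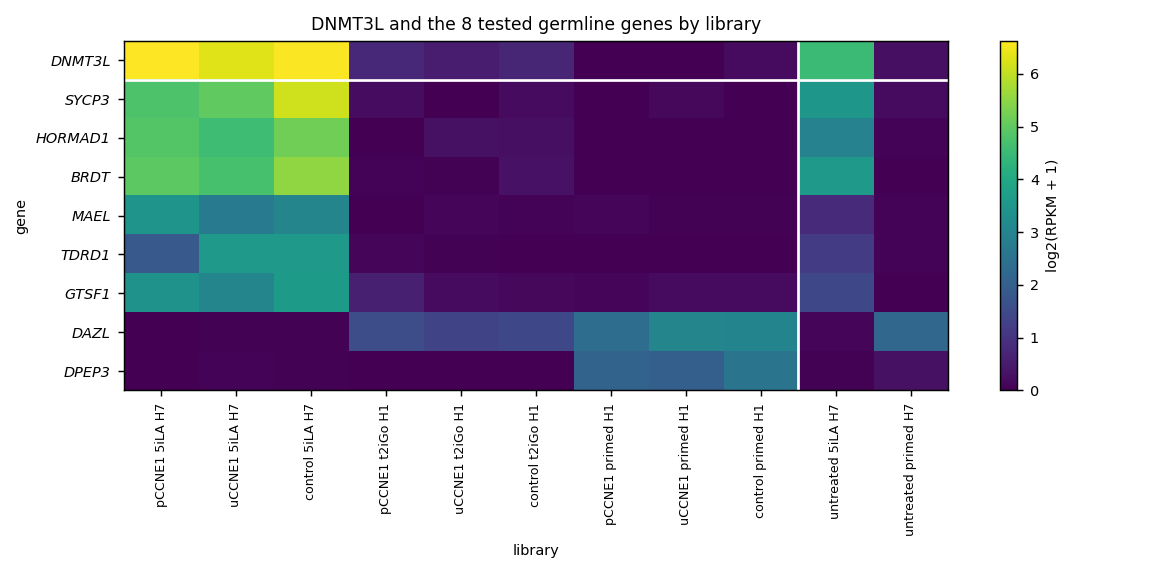
log2(RPKM + 1) of DNMT3L and of the 8 germline genes that reached a mean of 1 RPKM (rows) in the 11 libraries (columns), untreated H7 right of the white line. SYCP3, HORMAD1, BRDT, MAEL, TDRD1 and GTSF1 are bright in the 5iLA libraries with DNMT3L, and DAZL and DPEP3 are bright in primed H1.

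By Pearson r of log2(RPKM + 1) over the 9 shRNA libraries, the genes most like each member among 11250 coding genes were as follows, as a description, since the libraries fall into 3 cultures that set most of each r. DNMT3L was nearest to ZNF492, NLRP2 and HIST1H1A (r = 0.997 to 0.998), and DNMT3B to ERBB2, IGFBP6 and EIF2B4 (0.996 to 0.998). DNMT1 was nearest to ARHGAP17, SF3B4 and ARID1B (0.995 to 0.997), DNMT3A to CDC45, MAML1 and SNRPF (0.995 to 0.996) and UHRF1 to NHSL1, ZBTB24 and PDLIM3 (0.947 to 0.964). TET3 was nearest to C16orf45, ARNT2 and TBL1X (0.996 to 0.998), TET1 to FBXL20, NCOA3 and PTH1R (0.952 to 0.964) and TET2 to NBPF9, MSX2 and CEP95 (0.912 to 0.938). ZNF492, HIST1H1A and NBPF9 share sequence with close copies elsewhere in the genome and are uncertain.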

How the data were processed

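RNA of 11 libraries was sequenced, each its own group per the labels (RNeasy Mini extraction, TruSeq RNA kits). The authors deposited RPKM values, once per gene, in 2 tables treated as normalised separately. TopHat2, Cufflinks 1.2.1 and build hg19 are named per the submitters' processing notes; no source used here gives their settings or any use of strand. The depth behind the RPKM was estimated from the steps that single reads leave in low values. GC content and length came from GENCODE transcripts, matched for 97.4% of genes. Genes with a mean of at least 1 RPKM entered limma 3.58.1 (R 4.3.3) on log2(RPKM + 1), with culture and shRNA as terms, an intensity trend and 4 residual degrees of freedom. Differences of shRNA effects between cultures used a model with 3, all from the difference between the CCNE1 shRNAs, which stood in for replicates. A threshold of 0.05 was applied after Benjamini-Hochberg adjustment over all genes tested. Single libraries were compared without a test, at 2-fold on the scale of log2(RPKM + 1), while percents of control are on RPKM itself. p-values measure only the spread between these libraries. Alternatives were other pseudocounts, filters, scalings, models and left-out libraries. Centring on GC deciles was chosen after seeing the data. All members are named, with, from each other list, the genes of smallest p (up to 4 for t2iGo minus primed H1, 2 elsewhere) and the 3 genes most like each member; not all of these are given. Members and lists were chosen with earlier results of these data known. The fits were tested on simulated data.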

Additional observations from a re-analysis of the deposited data

Results flagged for a closer look

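With 1 library a group, no group had enough samples to look for a sample far from the others. In 3 results both CCNE1 shRNA libraries moved opposite ways in 2 cultures relative to the shared control of each culture, and a test of the difference did not pass for any of them. That test took both CCNE1 shRNAs as replicates, so its SE measures only how they differ. UHRF1 lay above control in t2iGo and below it in primed H1, a difference of shRNA effects of 1.12 ± 0.49 on the log2 scale (limma, adjusted p = 1.0). UHRF1 lay below control in 5iLA and above it in t2iGo, a difference of -0.78 ± 0.49 (limma, adjusted p = 0.666). With median-ratio scaling UHRF1 with pCCNE1 in 5iLA stood at 118% of control, above it, so this pattern held on deposited values only. DNMT1 lay above control in 5iLA and below it in t2iGo, a difference of 0.34 ± 0.41 (limma, adjusted p = 0.817).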

How the results depend on the processing

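The labels give no replicate numbers to pair by. The fit compares cultures within each shRNA and shRNAs within each culture. Without the other term 0 genes passed for any shRNA comparison, and the genes at an unadjusted p under 0.05 numbered 4 for pCCNE1 minus control, 9 for uCCNE1 minus control and 10 for pCCNE1 minus uCCNE1. The p-values rest on 9 libraries, and depth was estimated, so low values such as DNMT3L in primed H1 rest on estimated reads. Some member differences that passed under at least 1 of the settings compared changed sign. For 5iLA minus primed H1, UHRF1 was at 9.71e-05 with quantile normalization, 0.0112 with scaling on coding entries and 0.38 with GC centring, and DNMT3A at 0.0402 with GC centring. For t2iGo minus primed H1, GC centring gave 0.84 for UHRF1 and 0.18 for TET3. The causes were not tested. Members past the threshold for 5iLA minus t2iGo numbered 5, and 3 to 4 when the libraries of 1 shRNA were left out. Genes past the threshold numbered 0 to 94 for pCCNE1 minus control, 0 to 123 for uCCNE1 minus control and 0 to 40 for pCCNE1 minus uCCNE1 when 1 culture was left out, each highest without t2iGo, and 38 for uCCNE1 minus control on only the 6 libraries compared. Members past the threshold remained at 0 in these. For shRNA effects between cultures, genes past the threshold without a filter numbered 415 for 5iLA minus primed H1 (8 with it), 310 for 5iLA minus t2iGo (3 with it) and 365 for t2iGo minus primed H1 (10 with it). For 5iLA minus t2iGo they numbered 5 with median-ratio, quantile or coding-entry scaling or a pseudocount of 0.1 and 1 with GC centring, and for t2iGo minus primed H1 6 with GC centring. Of the alternatives for the tested members, 29 lost a call, 4 gained one and 6 that were called changed sign. The other 705 kept their side of the threshold, among them uncalled differences whose sign turned, such as UHRF1 for t2iGo minus primed H1 and DNMT3A and TET2 for 5iLA minus t2iGo with median-ratio scaling.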
